A study of Mus musculus with 4 samples.

Results

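The mouse Ifitm family is represented here by Ifitm1 (ENSMUSG00000025491), Ifitm2 (ENSMUSG00000060591), Ifitm3 (ENSMUSG00000025492) and Ifitm6 (ENSMUSG00000059108), 4 of the 32285 genes measured. They were chosen because the rise of Ifitm1 RNA between the days was already known, so their RNA ratios are given as a description. Accessible regions were members when they lay within 10 kb of a start site of these genes and had been found in both libraries, which held for 13 of 127216 shared regions. The data are 10x Multiome profiles, which give the RNA of a nucleus together with its accessible DNA (ATAC-seq). Living CD45+ CD64- CD11c+ liver cells, a gate that enriches dendritic cells, came from C57BL/6J mice without the diet (D0) or after 5 days (D5) of chow with 0.1% DDC, a porphyrinogenic compound that injures bile ducts. The study's methods give male mice of 6 to 12 weeks. No genetic change is named for any sample, and the number of mice per library is not given in the sources used here. Each day is 1 library, so no test was possible, every interval below is a 95% interval of counting error alone, and a difference between the days cannot be told apart from a difference between the libraries.

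Ifitm proteins are small membrane proteins that hinder the fusion of enveloped viruses with the host cell. Their genes are classical targets of interferon, and myeloid cells also hold them at a basal level. Ifitm1 is found mainly at the cell surface, whereas Ifitm2 and Ifitm3 reside mainly in endosomes and Ifitm6 is a rodent member of the group.

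All members lie on chromosome 7 (GRCm38.p6, RefSeq annotation). Ifitm2 spans 140954837 to 140959686 on the minus strand and Ifitm1 spans 140967429 to 140969827 on the plus strand. Ifitm3 spans 141009590 to 141010744 and Ifitm6 spans 141015812 to 141016892, both on the minus strand. The deposited files place the start of Ifitm2 inside that span, at 140955987, and give Ifitm1 a range of starts from 140967221 to 140968040. The starts from which accessible regions are measured are those of the files. The RefSeq promoters (250 bases before to 50 bases after 1 start per gene) were searched on both strands for the core of the interferon-stimulated response element (ISRE), taken as GAAA, any 2 bases and GAAA, and for TTCNNNGAA, the core of the gamma-activated site (GAS). The first was present in 3.44% and the second in 8.30% of 32851 promoters. The following stretches of 30 bases are shown because they hold all matches of the family, read 5′ to 3′ on the strand of the gene, with matches in capitals.
Ifitm2, chr7:140955988-140956017: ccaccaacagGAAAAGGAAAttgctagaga
Ifitm3, chr7:141010715-141010744: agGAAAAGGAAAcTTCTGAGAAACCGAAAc
Ifitm6, chr7:141016884-141016913: cccatatgaacTTCCTTGAAacaagagctt

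Ifitm2 held 1 ISRE-type match and Ifitm3 held 2, with 1 GAS-type match overlapping the second of them. Ifitm6 held 1 GAS-type match, and neither sequence was in the Ifitm1 window (chr7:140967826-140968125). Windows at the other starts of Ifitm1 and at the outer end of the Ifitm2 span were not searched. A match of this kind describes the letters only. The members have similar sequences, and whether reads were shared between them during counting was not tested.

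After filtering, 10975 nuclei at D0 and 19859 at D5 were kept, with medians of 1731 and 2559 UMIs (unique molecular identifiers, a count of RNA molecules) per nucleus. Nuclei were grouped by RNA with the Ifitm genes left out of the clustering, and groups were named from marker lists with the ending "-like". The 9 named classes that had at least 50 nuclei at each day were type 2 conventional dendritic cells (cDC2-like, 1747 nuclei at D0 and 5407 at D5), type 1 (cDC1-like, 1795 and 2996), plasmacytoid (pDC-like, 2330 and 2038), precursor-type (preDC-like, 251 and 1553) and mature dendritic cells (Ccr7+ DC-like, 326 and 1208). They further included NK cell-like (1435 and 1097), T cell-like (353 and 428), macrophage-like (805 and 1456) and nonclassical monocyte-like nuclei (106 and 172). None of the defining markers of a class was at 0 in that class. Sums over this many nuclei rarely reach 0, so this does not bear on the names. In each cDC2-like cluster 4 of the 8 cDC2 markers were raised 2-fold over the other clusters. A cluster led by Il1r2 and Dab2 (290 and 2445 nuclei) met no marker list and is given by these genes. The libraries shared 591 barcode sequences.

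Ifitm1 was higher at D5 than at D0 in each of the 9 named classes, by 7.17-fold to 28.8-fold, and the ratios of Ifitm2, Ifitm3 and Ifitm6 were smaller. In cDC2-like nuclei Ifitm1 stood at 42.6 CPM (UMIs scaled to a class total of 1000000) at D0 and at 613 CPM (601 to 626) at D5. These levels come from 150 and 9556 UMIs and differ 14.4-fold (12.3 to 17.0). Ifitm2 stood at 781 CPM (752 to 811) and then at 1456 CPM (1437 to 1475), a ratio of 1.86. The values of Ifitm3 were 998 CPM (965 to 1031) and 1530 CPM (1511 to 1550), a ratio of 1.53. Ifitm6, the member with the fewest UMIs at D5, had 136 CPM (124 to 149) and 197 CPM (190 to 204), a ratio of 1.45. The intervals of the 2 days were apart for every member in this class, and Ifitm1 changed most. Among the 12321 genes with at least 20 UMIs over both days, the ratio of Ifitm1 had rank 3, that of Ifitm2 rank 252, that of Ifitm3 rank 601 and that of Ifitm6 rank 805. Of these genes 1.59% were at least 2-fold higher at D5 and 8.25% at least 2-fold lower, with 0.5 UMIs added to each sum.

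The cDC1-like nuclei held less of every member. Ifitm1 was measured there at 20.2 CPM (16.2 to 24.8) at D0 and 195 CPM (186 to 204) at D5, 9.65-fold apart (7.80 to 12.1). Subtracting RNA from outside the nuclei, described below, turned this direction by some marker lists and not by others. Ifitm2 went from 251 to 731 CPM, a ratio of 2.91, and Ifitm3 from 299 to 574 CPM, a ratio of 1.92. The lowest ratio, 1.59, was that of Ifitm6, from 40.4 to 64.1 CPM. In this class 0.722% of 12051 genes were at least 2-fold higher and 8.54% at least 2-fold lower, and Ifitm1 had rank 6 and Ifitm2 rank 34.

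**Figure D1:**
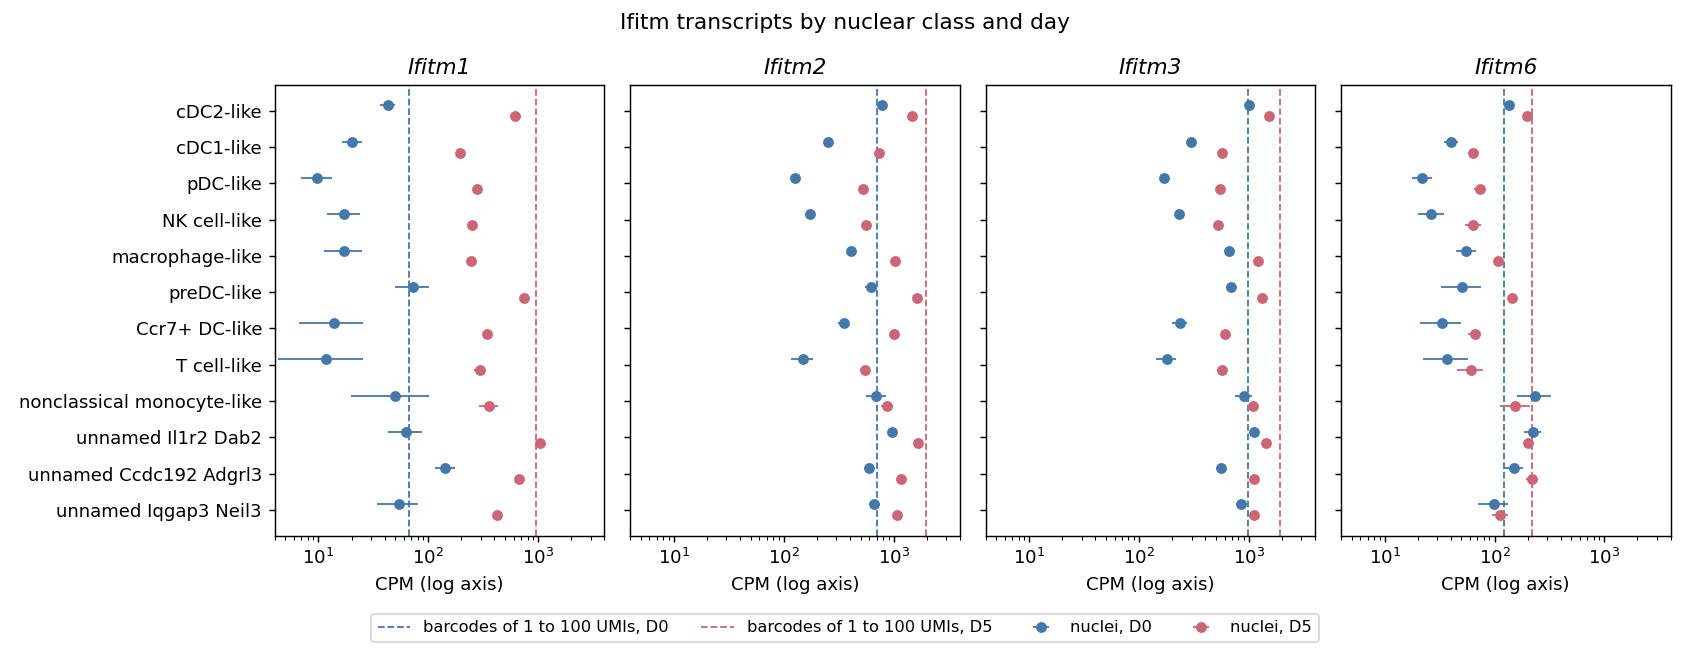
Levels of Ifitm1, Ifitm2, Ifitm3 and Ifitm6 in CPM (log axis) in 12 groups of nuclei at D0 and D5, with bars for the 95% counting interval. Dashed lines mark the level in barcodes of 1 to 100 UMIs on the same day. The D5 points of Ifitm1 lie to the right of the D0 points in every row, and those of the cDC2-like nuclei stand at 42.6 and 613 CPM.

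Ifitm1 had the highest ratio of the members also in lymphoid and plasmacytoid nuclei, which were low in Ifitm2 and Ifitm3. In pDC-like nuclei Ifitm1 was at 9.74 and 280 CPM, 28.8-fold apart (20.8 to 40.9), the highest ratio among the 11284 genes compared there. T cell-like nuclei showed 11.6 and 298 CPM, 25.6-fold apart (11.6 to 70.4), again rank 1, though from 6 UMIs at D0. In NK cell-like nuclei the values were 17.1 and 250 CPM, 14.6-fold apart (10.3 to 21.3). In low-count barcodes that were not called as nuclei, described below, Ifitm1 had a ratio of 14.6 and rank 3. Subtracting RNA from outside the nuclei by macrophage markers left 10.3% of Ifitm1 at D5 in pDC-like nuclei, a log2 ratio of 4.67. In NK cell-like nuclei 22.4% was left, a log2 ratio of 4.21. In T cell-like nuclei 14.1% was left, and no ratio could be formed. By hepatocyte markers no Ifitm1 remained in these classes at D5. The part of this outside RNA in the ratios was not tested. At least 2-fold higher at D5 were 1.32% of the genes compared in pDC-like, 2.42% in T cell-like and 1.4% in NK cell-like nuclei. Ifitm3 in these 3 classes went from 169 to 543, from 178 to 563 and from 233 to 527 CPM.

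Ifitm1 was also higher at D5 in the myeloid, precursor and mature classes, from widely different D0 levels. Macrophage-like nuclei had 17.1 and 245 CPM of Ifitm1, 14.4-fold apart (9.89 to 21.7), while their Ifitm3 went from 660 to 1210 CPM. Ccr7+ DC-like nuclei had 13.8 and 345 CPM of Ifitm1, 25.1-fold apart (13.6 to 52.4). The preDC-like nuclei had the highest Ifitm1 level of the named classes on both days, 72.0 CPM (49.9 to 101) and 736 CPM (711 to 763), and a ratio of 10.2 (7.30 to 14.8). Nonclassical monocyte-like nuclei differed from the rest in that the intervals of Ifitm2, Ifitm3 and Ifitm6 all included a ratio of 1. Their Ifitm6 was at 234 CPM (161 to 329) and 155 CPM (112 to 208), a ratio of 0.660 (0.410 to 1.07), whereas their Ifitm1 went from 49.7 to 356 CPM. At least 2-fold higher at D5 were 1.22% of the genes compared in macrophage-like, 4.32% in Ccr7+ DC-like, 3.61% in preDC-like and 3.99% in nonclassical monocyte-like nuclei. Over the 9 classes Ifitm2 passed 2-fold in 7, Ifitm3 in 4 and Ifitm6 in 3, with median ratios of 2.89, 1.93 and 1.95.

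Ordered by level at D5, Ifitm1 was highest in preDC-like (736 CPM) and cDC2-like nuclei (613), followed by nonclassical monocyte-like (356) and Ccr7+ DC-like nuclei (345). Below these came T cell-like (298), pDC-like (280), NK cell-like (250) and macrophage-like nuclei (245), and last cDC1-like nuclei (195). For 3 pairs of neighbours in this order the interval of the ratio included 1, namely nonclassical monocyte-like and Ccr7+ DC-like (1.03, 0.833 to 1.27), T cell-like and pDC-like (1.06, 0.924 to 1.22), and NK cell-like and macrophage-like nuclei (1.02, 0.918 to 1.13). The other neighbours differed beyond counting error, by little between Ccr7+ DC-like and T cell-like (1.16, 1.01 to 1.33) and between pDC-like and NK cell-like nuclei (1.12, 1.01 to 1.24). Ifitm3 had another order, with cDC2-like nuclei (1530 CPM) first, then preDC-like (1324), macrophage-like (1210) and nonclassical monocyte-like (1086), and the other 5 classes between 527 and 602 CPM. The macrophage-like nuclei were thus near the top for Ifitm3 and near the bottom for Ifitm1. Among the named classes Ifitm2 was likewise highest in preDC-like (1651 CPM) and cDC2-like nuclei (1456), and Ifitm6 in cDC2-like nuclei (197). For Ifitm6 the ratio of cDC2-like to nonclassical monocyte-like nuclei was 1.28 (0.944 to 1.77), an interval that includes 1. The nuclei led by Il1r2 and Dab2 had more Ifitm1 at D5 than any named class, 1029 CPM (1006 to 1054) against 62.7 CPM (43.4 to 87.6) at D0, 16.4-fold apart (11.7 to 23.7). Their Ifitm6 did not differ beyond counting error, with 223 and 200 CPM.

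Within the cDC2-like nuclei the members were not uniform. The Tnfsf9- and Tnip3-led cluster had 51.1 CPM of Ifitm1 at D0 and 622 at D5, 12.2-fold apart. The Skint3- and Sirpb1a-led cluster had 27.2 and 599 CPM, 22.0-fold apart (15.7 to 31.9), so that the clusters differed at D0 and were close at D5. When cDC2-like nuclei were clustered again, the subcluster led by Gm17268, Cxcl10 and Mt2 had the lowest Ifitm1 level at D5, 294 CPM. Cxcl10 and the next leading gene, Cxcl9, are interferon-induced chemokines. This Ifitm1 level was 0.305 of that in low-count barcodes, described below. Beside it T cell markers stood at 0.188, NK cell markers at 0.417 and macrophage markers at 0.509 of their own low-count levels. That subcluster held 809 nuclei at D0 and 373 at D5. At D0 its Ifitm1 was not the lowest, with 47.7 CPM beside 42.6 CPM in all cDC2-like nuclei. The highest level at D5, 936 CPM, was in a subcluster led by the hepatocyte transcripts Apoc1, Apoa2 and Mup20 (36 and 268 nuclei), where hepatocyte markers stood at 4.06 times their level in low-count barcodes. Without it the ratio of Ifitm1 in cDC2-like nuclei was 14.2 (12.0 to 16.8).

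Free RNA, released from broken cells, enters droplets of every kind, and barcodes that were not called as nuclei show its makeup. In barcodes of 1 to 100 UMIs Ifitm1 was at 66.2 CPM (56.6 to 76.9) and at 965 CPM (939 to 992), 14.6-fold apart (12.5 to 17.1). This is as large a ratio as in cDC2-like nuclei (14.4), and it had rank 3 among the 10879 genes compared in these barcodes. Ifitm2 had 711 and 1953 CPM (2.75-fold), Ifitm3 had 982 and 1926 CPM (1.96-fold) and Ifitm6 had 123 and 218 CPM (1.77-fold). All members were therefore abundant outside called nuclei and higher there at D5. From 101 UMIs up to 999 UMIs per uncalled barcode, Ifitm1 lay between 1223 and 1243 CPM at D5, above its level in the shallower barcodes. At D0 it had 59.0 CPM in barcodes of 101 to 250 UMIs and 66.9 CPM in those of 251 to 500. The days thus lay further apart in these bins than in barcodes of 1 to 100 UMIs. At D0 barcodes of 101 to 250 UMIs held 8790153 UMIs in all, against 2583284 in those of 1 to 100. At D5 barcodes of 251 to 500 UMIs held 10511829, against 5394891. All subtractions and all values relative to low-count barcodes use those of 1 to 100 UMIs. Relative to the deeper bins Ifitm1 in nuclei would be lower at D5, and which bin stands for free RNA was not tested.

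**Figure D2:**
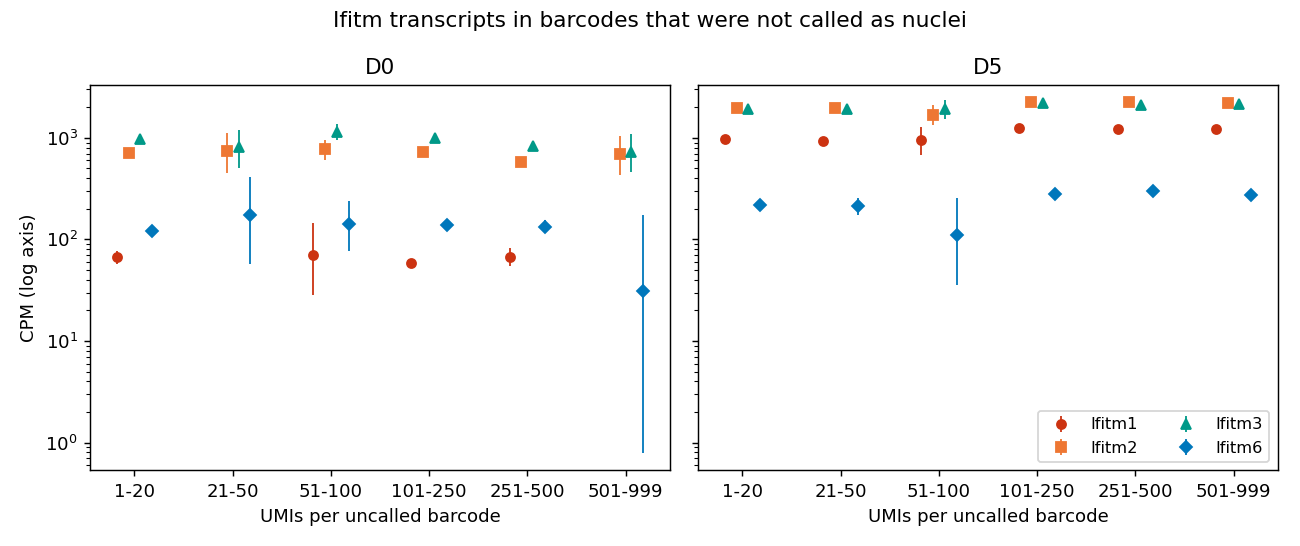
Levels of the members in CPM (log axis) in uncalled barcodes, grouped by UMIs per barcode, at D0 (left) and D5 (right), with 95% counting intervals. Ifitm1 is absent from the D0 bins of 21-50 and 501-999 UMIs, where no UMI of it was counted, and at D5 it stays between 928 and 1243 CPM in all bins.

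The levels in nuclei were then divided by those in these barcodes. NK cell-like nuclei at D5 had 0.259 of the low-count level of Ifitm1, 0.289 of Ifitm2, 0.273 of Ifitm3 and 0.294 of Ifitm6. T cell-like nuclei had 0.308, 0.279, 0.292 and 0.279, and pDC-like nuclei had 0.290, 0.271, 0.282 and 0.336. The members thus kept nearly the proportions of the low-count barcodes in these 3 classes. Ifitm1 made up 17.8% (16.5 to 19.2) of the family's UMIs in NK cell-like, 20.3% (18.1 to 22.6) in T cell-like and 19.7% (18.6 to 20.7) in pDC-like nuclei, against 19.1% (18.6 to 19.5) in the low-count barcodes. At D0 it made up 3.81%, 3.09% and 2.97% in the same order, against 3.52%. The 8 macrophage markers, which these nuclei should lack, stood in them at 0.201 (NK cell-like), 0.265 (T cell-like) and 0.261 (pDC-like) of their own low-count level at D5. In pDC-like nuclei the 8 T cell markers stood at 0.375, and in NK cell-like nuclei the 8 cDC1 markers stood at 0.485, above every member there. The values of all 4 members in NK cell-like nuclei, and that of Ifitm6 in pDC-like nuclei, lay above the interval of the macrophage markers. Whether these classes express the family above the level given by free RNA was not tested.

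The values of the cDC2-like nuclei were higher. At D5 they had 0.636 (0.615 to 0.658) of the low-count level of Ifitm1, 0.746 of Ifitm2, 0.794 of Ifitm3 and 0.906 of Ifitm6, while the 8 T cell markers stood at 0.208 (0.190 to 0.228). At D0 the values were 0.644 (0.514 to 0.806), 1.10, 1.02 and 1.11 in the same order, with T cell markers at 0.171, so that Ifitm2 and Ifitm3 were lower at D5 relative to low-count barcodes while their CPM was higher. The intervals of Ifitm6 on the 2 days overlapped. T cell markers were the lowest of the lists compared in this class. Macrophage markers stood at 0.291 and NK cell markers at 0.408 (0.394 to 0.422), both below every member, while cDC1 markers stood at 0.719 (0.695 to 0.743), above Ifitm1. At D5 the cDC1 markers also stood above their low-count level in pDC-like (2.61) and Ccr7+ DC-like nuclei (1.48). Whether cDC2-like, NK cell-like, macrophage-like or preDC-like nuclei transcribe these genes themselves was not tested. The 8 hepatocyte markers stood at 0.822 (0.675 to 1.005) in cDC2-like nuclei, above Ifitm1, while Ifitm2, Ifitm3 and Ifitm6 lay within their interval. Without the hepatocyte-led subcluster these markers stood at 0.728. Which of these lists gives the share of free RNA in a cDC2-like nucleus was not tested. With the share taken from the T cell markers, the lowest list, 37.8 CPM of Ifitm1 remained at D0 and 521 CPM at D5, a log2 ratio of 3.79. With the share taken from hepatocyte markers, no Ifitm1 remained on either day.

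In cDC1-like nuclei Ifitm1 stood at 0.202 (0.192 to 0.213) of its low-count level at D5, below the T cell markers at 0.215 (0.194 to 0.239) within their interval. Macrophage markers were lower, at 0.166 (0.147 to 0.188). At D0 Ifitm1 stood at 0.305, T cell markers at 0.138 and macrophage markers at 0.295. The lists therefore differ in whether Ifitm1 exceeded another cell type's transcripts at D5, and which of them gives the share of free RNA was not tested. Ifitm2 stood at 0.374 and Ifitm3 at 0.298 there at D5, above the T cell markers. NK cell markers, at 0.325 (0.312 to 0.339), lay above Ifitm3 and Ifitm6 (0.294), and hepatocyte markers stood at 0.287 (0.215 to 0.381), so that only Ifitm2 exceeded the T cell and NK cell markers. Ifitm1 made up 12.5% of the family's UMIs in cDC1-like and 9.49% (8.95 to 10.1) in macrophage-like nuclei, less than in low-count barcodes. Macrophage-like nuclei had 0.254 (0.238 to 0.272) of the low-count level of Ifitm1, beside T cell markers at 0.231 (0.199 to 0.266), NK cell markers at 0.268 and hepatocyte markers at 1.13, but 0.628 of Ifitm3. The Ifitm1 value of macrophage-like nuclei at D5 thus lay within the interval of the T cell markers, and 9.29% of the level remained when the share given by T cell markers was subtracted. This left 6.20 CPM at D0 and 29.6 CPM at D5, a log2 ratio of 2.26 in place of 3.85. The cDC1 markers stood at 0.774 in this class, above its Ifitm3. The nuclei led by Il1r2 and Dab2 had the highest share, 23.8% (23.4 to 24.3), and the highest Ifitm1 level relative to low-count barcodes of the groups compared at D5, 1.07 of it, beside T cell markers at 0.237 and hepatocyte markers at 0.584. Their 1029 CPM lay below the 1223 to 1243 CPM of uncalled barcodes of 101 to 999 UMIs. The preDC-like nuclei followed at 0.763 of the low-count Ifitm1, with hepatocyte markers at 0.369 and cDC1 markers at 0.792 (0.757 to 0.828), above every member but Ifitm2 (0.846). Ccr7+ DC-like nuclei had 0.208 of the low-count Ifitm1 at D0, with T cell markers at 0.259 (0.210 to 0.316), and 0.357 at D5. Subtracting the share given by T cell markers left -4.59 CPM there at D0, so no ratio could be formed. In nonclassical monocyte-like nuclei that subtraction gave a log2 ratio of 1.93 in place of 2.84. In preDC-like nuclei it left 73.4 CPM of Ifitm1 at D0 and 669 CPM at D5, a log2 ratio of 3.19. Subtraction by hepatocyte markers left 74.9 and 602 CPM there, a log2 ratio of 3.01. The nuclei led by Il1r2 and Dab2 kept log2 ratios of Ifitm1 of 4.09 (T cell markers) and 4.197 (hepatocyte markers). The share given by cDC1 markers, which stood above Ifitm1 in preDC-like nuclei, was not subtracted.

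**Figure D3:**
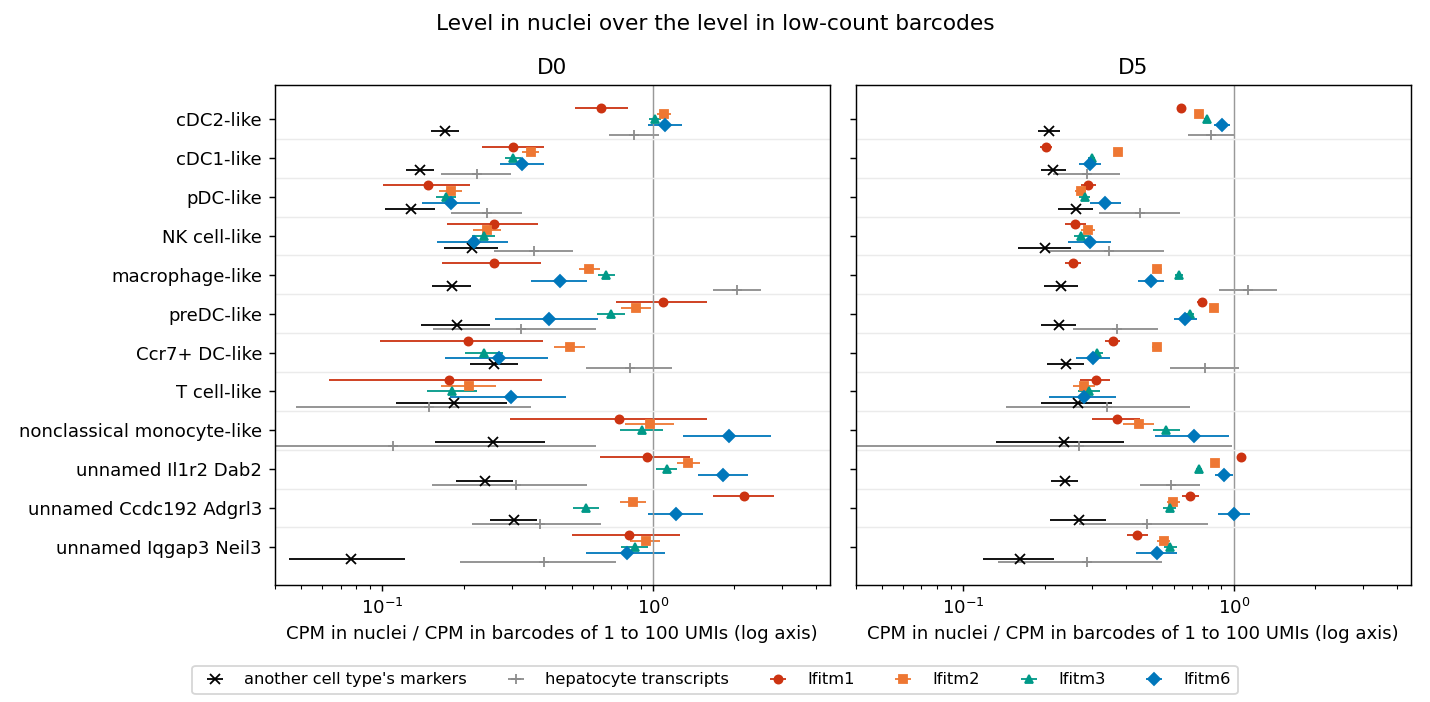
Level in nuclei divided by the level in barcodes of 1 to 100 UMIs (log axis), at D0 (left) and D5 (right), for the members, for markers of another cell type (crosses) and for hepatocyte markers (grey), with 95% counting intervals. At D5 the member points of NK cell-like, T cell-like and pDC-like nuclei lie between 0.259 and 0.336, and those of cDC2-like nuclei between 0.636 and 0.906.

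The share of nuclei with a UMI of Ifitm1 moved likewise. With each nucleus thinned to 1000 UMIs, 3.72% (2.88 to 4.72) of cDC2-like nuclei at D0 and 35.6% (34.3 to 36.9) at D5 held at least 1 UMI of Ifitm1. Unthinned, these shares were 6.98% and 60.9%, at medians of 1858 and 2678 UMIs. NK cell-like nuclei, with medians of 1215 and 1729 UMIs, gave 1.88% and 22.1% after thinning, and cDC1-like nuclei gave 1.84% and 16.6%. The cDC1-like share at D5 was thus below that of the NK cell-like nuclei. Highest among the named classes were preDC-like nuclei, at 6.37% at D0 and 40.9% at D5. Any of the 4 members was found in 78.0% of thinned cDC2-like nuclei at D0 and 95.1% at D5. Free RNA, with 66.2 and 965 CPM of Ifitm1 in low-count barcodes, also enters these shares, and its part was not tested. They are therefore not shares of nuclei that express Ifitm1.

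Other features of the libraries moved with the family. The 78 ribosomal protein genes made up 12.2% of the UMIs of cDC2-like nuclei at D0 and 18.0% at D5, a ratio of 1.47 that lies beside those of Ifitm3 (1.53) and Ifitm6 (1.45). In the other named classes it was higher, up to 1.81 in pDC-like nuclei, and it was 1.33 in low-count barcodes. Mitochondrial transcripts fell to 0.462 of their D0 share in cDC2-like nuclei. The part of these shifts in the Ifitm ratios was not tested. The median log2 ratio of all genes compared was -0.17 in cDC2-like nuclei, where scaling by TMM raised the log2 ratios of the members by 0.16, and -0.24 in cDC1-like nuclei, where it raised them by 0.23. With that scaling the log2 ratio of Ifitm2 in cDC2-like nuclei was 1.06 in place of 0.90, past 2-fold, and that of Ifitm1 was 4.01 in place of 3.85.

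In cDC2-like nuclei the summed accessibility around each gene had a ratio nearer to 1 than its RNA. Peaks had been called in each library separately and counted in its own peaks, so the sums compare regions that can differ in extent. Each of the 13 regions was 1 peak per library, and the bases in both peaks made up from 89.5% to 100% of the D0 peak and from 93.7% to 100% of the D5 peak, with 3553 and 3606 bases near Ifitm1. Over the 4 shared regions near Ifitm1, cDC2-like nuclei had 24.4 FPM (fragments scaled to a class total of 1000000 in shared regions) at D0 and 34.3 at D5, a ratio of 1.41 (1.18 to 1.69). The 3 regions near Ifitm2 gave 110 and 129 (1.18, 1.08 to 1.28), and the 3 near Ifitm3 gave 33.1 and 38.4 (1.16, 0.994 to 1.36). The regions near Ifitm2 did not cover its start. A peak over that start was called at D5 only and is outside these sums. Near Ifitm6 the sums were 63.8 and 64.7, a ratio of 1.01 (0.906 to 1.14). The intervals of Ifitm2, Ifitm3 and Ifitm6 overlapped, so that no order among them is given.

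The region that covers the most downstream of the Ifitm1 starts in the files (chr7:140967627-140968519) and the whole promoter window searched above showed the highest ratio of the 13 in cDC2-like nuclei. It had 22 fragments (3.31 FPM, 2.07 to 5.01) at D0 and 138 fragments (8.35 FPM, 7.01 to 9.86) at D5, a ratio of 2.52 (1.60 to 4.16). It was the only region of the 13 past 2-fold in this class, where 1.56% of the 95425 regions compared were at least 2-fold higher. In nuclei led by Il1r2 and Dab2 the region went from 3.41 to 13.6 FPM, a ratio of 3.98 (1.51 to 14.9) from 4 and 102 fragments. In preDC-like nuclei it was already at 16.1 FPM (9.55 to 25.5) at D0 and stood at 14.5 (11.6 to 18.0) at D5. The cDC1-like nuclei had 2.64 and 4.09 FPM (1.55, 0.916 to 2.69). The pDC-like nuclei, with the highest RNA ratio, had 2.60 and 1.94 (0.747, 0.362 to 1.47), and NK cell-like nuclei had 6 and 7 fragments. Ccr7+ DC-like nuclei had 3 and 26 fragments (2.20 and 6.28 FPM), a ratio of 2.86 (0.875 to 14.7), above that of cDC2-like nuclei but from few fragments. Nuclei led by Ccdc192 and Adgrl3 gave 2.10 (0.907 to 5.28) and macrophage-like nuclei 1.65 (0.731 to 4.08). The interval of this ratio lay above 1 in cDC2-like nuclei and in those led by Il1r2 and Dab2 and included 1 in the other groups just given. In pDC-like and preDC-like nuclei it also lay below the interval of cDC2-like nuclei, while the few fragments of NK cell-like, Ccr7+ DC-like and macrophage-like nuclei leave wide intervals that include both 1 and the cDC2-like ratio. The class ratios were not tested against each other.

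Away from the Ifitm1 start, a region 4164.5 bases downstream of the Ifitm3 start (chr7:141006151-141007059) had the next ratio in cDC2-like nuclei, from 7.67 to 14.6 FPM (1.91, 1.41 to 2.63). A region 5597 bases downstream of the Ifitm1 start had 3.46 and 5.75 FPM (1.66, 1.04 to 2.75), and another at 8878.5 bases had 7.07 and 10.9 (1.54, 1.11 to 2.17). The intervals of these ratios lay above 1, but the regions at the Ifitm3 start (5.72 and 5.20 FPM) and at the Ifitm6 start (30.1 and 33.0) did not differ beyond counting error. The most accessible of the 13 regions in cDC2-like nuclei lay beside Ifitm2, 1859 and 8745 bases downstream of its start, with 53.9 and 49.8 FPM at D0 and 64.6 and 58.3 at D5. In pDC-like nuclei the first of these had 23.2 FPM at D0 and the second 7.12, so that both were more open in cDC2-like nuclei on the same day. In NK cell-like nuclei the first had 6.62 FPM and the second 51.7, the reverse of their order in pDC-like nuclei. The nearest shared region outside the window lay 10883 bases from the Ifitm3 start, with 57.9 and 66.8 FPM in cDC2-like nuclei (1.15, 1.03 to 1.30). Further out, regions 11889, 18972 and 20360 bases from a member start had ratios of 1.43, 1.77 and 1.91, with intervals above 1. A region at 13819 bases had 1.16 (1.04 to 1.28). Those at 12462, 13486, 16868 and 19510 bases had intervals that include 1.

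**Figure D4:**
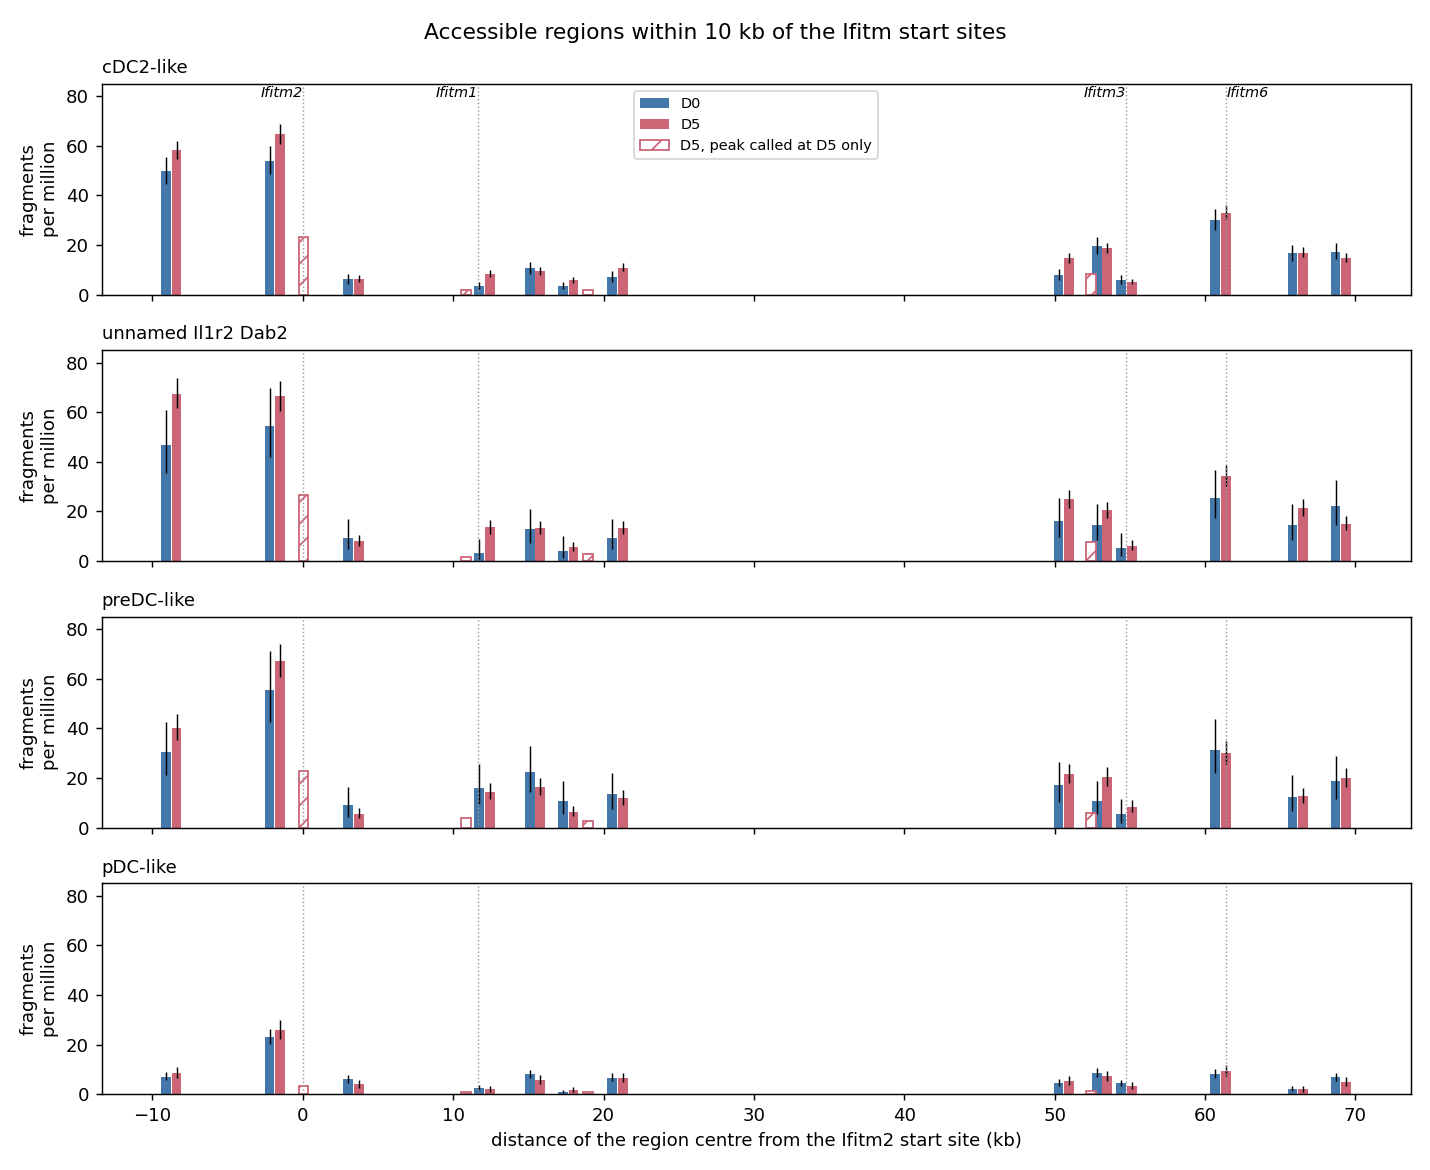
FPM in the 13 shared regions at D0 and D5 against the distance of each region from the Ifitm2 start (kb), in 4 groups of nuclei, with 95% counting intervals; dotted lines mark the member start sites and hatched bars are peaks called at D5 only. The region at the Ifitm1 start has 3.31 and 8.35 FPM in cDC2-like nuclei and 2.60 and 1.94 in pDC-like nuclei.

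Since the family is known as an interferon target, a list of 42 interferon-stimulated genes was read beside it in cDC2-like nuclei. Of 40 with enough UMIs, 0 were at least 2-fold higher at D5 and 6 were at least 2-fold lower, and their median log2 ratio was -0.27 beside -0.17 for all genes. The lowest were Gbp2, a guanylate-binding protein, which fell from 35.2 to 7.25 CPM, the chemokine Cxcl9 (144 to 35.4 CPM), Iigp1 (5.11 to 1.41 CPM) and Gbp3 (12.8 to 4.49 CPM). Cxcl10 and the antiviral Rsad2 were the other two past 2-fold. The highest ratios were those of Ifit3b (1.76 from 5 and 39 UMIs, with an interval of 0.694 to 5.73), Slfn5 (91.2 to 140 CPM, a ratio of 1.53), Ifit1 (1.17) and Ifi27l2a (1.12). Over all genes in this class 1.59% were 2-fold higher and 8.25% lower, so that the count of 0 higher is near the share over all genes. The subcluster described above, with Cxcl10, Cxcl9 and Gbp2 among its leading genes, held 809 of 1747 cDC2-like nuclei at D0 and 373 of 5407 at D5, and its part in these differences was not tested. In cDC1-like nuclei 0 of 39 were higher and 13 lower, with a median of -0.55, against 0.722% and 8.54% of all genes. In nonclassical monocyte-like nuclei 2 of 11 were higher and 0 lower, with a median of 0.56, against 3.99% and 5.14% of all genes. The preDC-like nuclei had 2 of 33 higher and 11 lower, against 3.61% and 8.72%. In Ccr7+ DC-like nuclei these were 2 of 34 and 8, against 4.32% and 6.21%. In pDC-like nuclei they were 1 of 37 and 2, against 1.32% and 3.48%. Of the list 0 were higher in NK cell-like, macrophage-like and T cell-like nuclei, against 1.4%, 1.22% and 2.42%. In low-count barcodes 0 of 38 were higher and 10 lower, against 0.662% and 12.9% of all genes. The median log2 ratio of the list in these barcodes was -0.57, beside -0.39 for all genes compared there. Some genes of the list were higher there at D5, among them Oas2 with a ratio of 1.76 (1.03 to 3.14) and Ifi27l2a with 1.32. The part of free RNA in the ratios of the list was not tested.

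The 12 genes of interferon receptors and signalling had 0 past 2-fold in either direction in cDC2-like nuclei. Over all genes 1.59% were higher and 8.25% lower, so for a list of this length the counts are near those shares. The median of the list was -0.30, beside -0.17 for all genes. Irf1, an interferon-induced transcription factor, went from 208 to 115 CPM (0.551, 0.506 to 0.602). Highest was Ifngr1, the ligand-binding chain of the interferon gamma receptor, from 324 to 437 CPM (1.35, 1.27 to 1.44), followed by Ifngr2 (1.11) and Ifnar2 (1.06).

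Proteins known to bind or modify Ifitm proteins had 0 of 8 past 2-fold, against 1.59% of all genes higher and 8.25% lower. Their median was -0.04. These counts, and those of the tetraspanins below, are near the shares over all genes. Zmpste24, a protease that acts together with Ifitm proteins, went from 14.8 to 22.0 CPM (1.49, 1.11 to 2.03), and Atp6v0b, a subunit of the endosomal proton pump, from 204 to 255 CPM. The ubiquitin ligase Nedd4 was lowest, from 38.6 to 25.6 CPM (0.663), and Zdhhc20, which palmitoylates Ifitm3, had 84.1 and 74.9 CPM. Of the 7 tetraspanins, membrane partners that include the Ifitm1 partner Cd81, 0 were higher and 1 lower, against 1.59% and 8.25% of all genes. The median of the 7 was -0.02. The lower gene was Cd81 itself, at 41.5 and 7.25 CPM, a ratio of 0.175 (0.136 to 0.225). Cd81 was also lower in low-count barcodes (79.4 and 36.5 CPM). Cd9 had 339 and 247 CPM, and Cd151 had the highest ratio, 1.56 with an interval of 0.870 to 3.05.

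**Figure D5:**
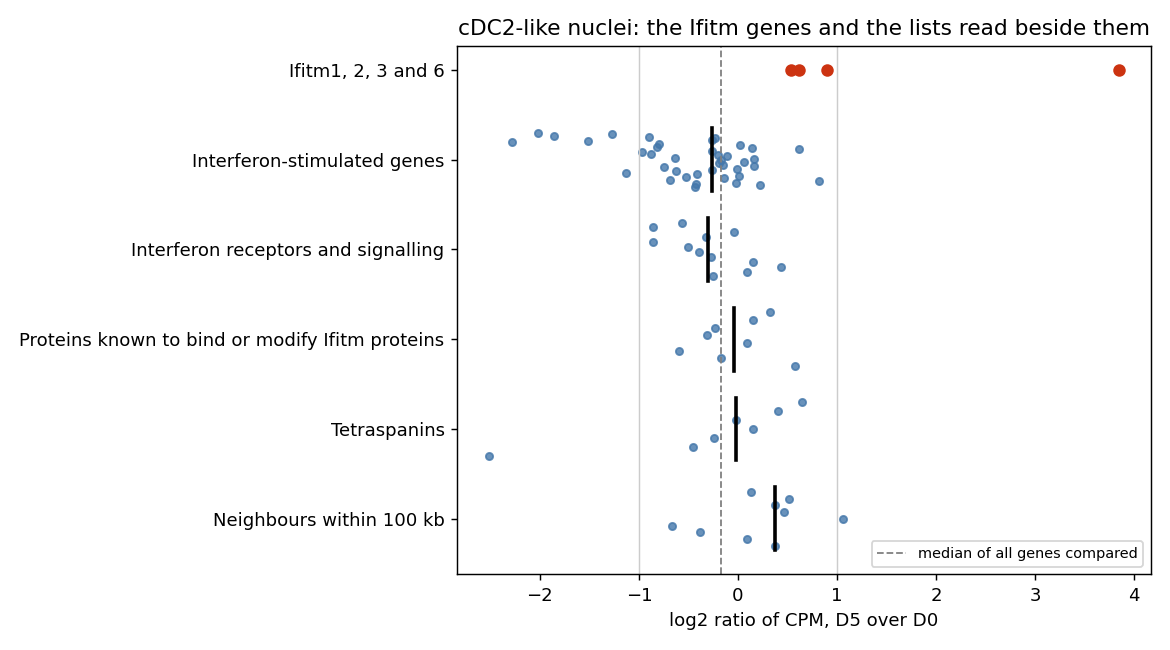
Log2 ratio of CPM, D5 over D0, in cDC2-like nuclei for the 4 members (red) and for each tested gene of 5 lists (blue), with the list median as a black bar and the median of all genes as a dashed line at -0.17. Grey lines mark 2-fold. Ifitm1, which was chosen for its rise, lies at 3.85, to the right of every listed gene.

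The genes next to the family were also read beside it. Since Ifitm1 had been chosen for its rise, smaller ratios in its neighbours follow largely from that choice. Within 100 kb of a member start lay 14 other genes, of which 9 had enough UMIs in cDC2-like nuclei. Once 0.5 UMIs had been added, 0 of these 9 were 2-fold higher or lower, against 1.59% and 8.25% of all genes. Their median log2 ratio was 0.37, beside -0.17 for all genes. B4galnt4 had the highest ratio, 2.09 from 4 and 37 UMIs (0.751 to 8.07), followed by Pkp3 (1.43), Bet1l (1.38) and Sirt3 (1.30). Lowest was Ifitm5, a member of the family known from bone, with 15.1 and 9.50 CPM (0.631, 0.458 to 0.881), and then Pgghg at 0.764. Of the family outside this locus, Ifitm10 had 2.27 and 1.28 CPM, and Ifitm7 had 0 UMIs at D0 and 1 UMI at D5.

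Over the 9 named classes at both days, 18 points that come from 2 libraries and share their free RNA, the gene with the pattern most like Ifitm1 was Fxyd7 (Pearson r = 0.924 of log2 CPM with 1 added, among 11428 genes). It was followed by Rpl35a (0.899), S100a8 (0.896), Nsa2 (0.892) and Rps25 (0.891). Among these are ribosomal protein genes and S100a8, an abundant neutrophil transcript that had 12.4 and 88.0 CPM in low-count barcodes and at most 30.2 CPM in any of these classes. Among the genes most like Ifitm3 were Ms4a6c (0.967), Ifitm2 (0.937), Ms4a4c (0.908) and Ifitm6 (0.908), which include its neighbours. Ifitm1 correlated with Ifitm2 at 0.854, with Ifitm3 at 0.760 and with Ifitm6 at 0.656.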

How the data were processed

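RNA and ATAC layers of 2 libraries (D0 and D5) were analysed. The RNA matrices hold raw UMI counts per gene and called barcode that the authors made with Cell Ranger (6.0.2 in the file header), and the joint matrices hold raw counts of genes and of peaks called per library for all barcodes, deposited from Cell Ranger ARC 2.0.2. The submitters' notes name the build mm10. The D5 joint matrix came without barcodes here, so its barcodes were matched to the RNA matrix by identical gene counts, for 27873 of 27873. Peak counts were halved to fragments, since 80.9% (D0) and 83.2% (D5) of entries were even.

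Called barcodes (16260 at D0, 27873 at D5) were kept from 1000 UMIs upward, with a mitochondrial share up to 10%. A Scrublet score of 0.2 or more removed 3303 and 6774 as doublets, a common cut set after the scores were seen, because the automatic cuts called 39.3% and 8.18%. Nuclei were clustered in scanpy 1.11.5 (2000 variable genes without the Ifitm genes, 30 components, 15 neighbours, Leiden resolution 1.0). A cluster was named when at least 3 markers of a list were raised 2-fold and the raised share of that list led the next by 0.2 or more. Another list could still be raised, as were 6 of 8 NK cell markers in the T cell-like cluster. The name preDC-like was given to a cluster that was otherwise unnamed, with under 3 markers of its best list raised. It required 5 preDC markers raised 2-fold over the cDC2-like clusters only. By this count 6 of 7 were raised in the preDC-like cluster and 5 of 7 in the pDC-like clusters. Thresholds were set with the clusters in view. UMIs were summed per class and scaled to CPM and fragments to FPM. Levels have exact Poisson intervals, and ratios and shares have exact binomial (Clopper-Pearson) intervals, which cover counting error only. Ratios over all genes were computed with 0.5 added to each sum for genes with at least 20 UMIs over both days. Regions of the libraries that overlapped by at least 1 base were compared. Low-count barcodes are uncalled barcodes of 1 to 100 UMIs in the joint matrices. TMM factors came from edgeR 4.0.16, and the ratio calculation was tested on simulated data.

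The members, lists and rules were chosen with earlier results of these data known. The genes named are the members, up to 4 of the highest and lowest of each list in cDC2-like nuclei, and the 5 genes most correlated with Ifitm1 and with Ifitm3, of which some items are not reported here. Classes with under 50 nuclei on a day were not compared. Alternatives comprised scaling, doublets, UMI minimum, thinning, free RNA, clustering, windows and peak sets.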

Additional observations from a re-analysis of the deposited data

Results flagged for a closer look

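Peaks that had been called at D5 only are outside the comparison of shared regions, and 4 of them lay within 10 kb of a member start. They are given because they hold fragments at D5 and have no counterpart in the D0 matrix, in which fragments at these places were not counted. The highest covered the Ifitm2 start (chr7:140955591-140956477) with 23.2 FPM (fragments scaled to a class total of 1000000, 20.9 to 25.6) in cDC2-like nuclei, 22.9 in preDC-like and 19.5 in cDC1-like nuclei, against 5.20 in NK cell-like and 3.41 in pDC-like nuclei. The next, 2337 bases downstream of the Ifitm3 start, had 8.10 FPM in cDC2-like nuclei and 1.23 in pDC-like nuclei. The other two lay near Ifitm1, 376 bases upstream of a start with 1.77 FPM and 6937.5 bases downstream with 1.66 FPM in cDC2-like nuclei. A peak called at D0 only, 9409 bases downstream of the Ifitm3 start, had 3.73 FPM in cDC2-like nuclei.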

How the results depend on the processing

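Each day has 1 library, so no value has a replicate error and leaving out a library was not possible. No paired analysis was possible because each day has 1 library. Depth limits T cell-like and nonclassical monocyte-like nuclei most, with 6 and 7 UMIs of Ifitm1 at D0. The log2 ratios of Ifitm1 RNA in the named classes were positive where a ratio could be formed, but subtraction of free RNA turned the remaining level of Ifitm1 from 12.8 to -16.5 CPM (T cell markers) and from 6.97 to -116 CPM (hepatocyte markers) in cDC1-like nuclei, and from 2.07 to -47.3 CPM (hepatocyte markers) in T cell-like nuclei, so the direction turned there. By macrophage markers, chosen after seeing the data, it did not turn in cDC1-like nuclei, where 0.923 and 41.3 CPM of Ifitm1 remained. Values below are log2 ratios, D5 over D0, unless stated. In cDC2-like nuclei TMM gave 1.06 for Ifitm2, 0.78 for Ifitm3 and 0.70 for Ifitm6, and in cDC1-like nuclei 1.77 for Ifitm2 and 1.18 for Ifitm3. With at least 2000 UMIs per nucleus, cDC2-like nuclei gave 4.14 for Ifitm1 and 0.48 for Ifitm3. All nuclei taken without classes gave 4.24, 1.72, 1.33 and 1.20 for Ifitm1, Ifitm2, Ifitm3 and Ifitm6, to be set against both classes. With any doublet score, cDC1-like nuclei gave 3.89 for Ifitm1 and 1.72 for Ifitm2. Subtracting free RNA by hepatocyte markers turned the direction to -1.03 for Ifitm6 in cDC2-like nuclei, and to -1.84 for Ifitm3 and -3.01 for Ifitm6 in cDC1-like nuclei, where Ifitm2 had 0.998. It left no value for Ifitm1 in either class nor for Ifitm2 and Ifitm3 in cDC2-like nuclei. Subtraction by another cell type's markers, chosen after seeing the data, gave 0.74 for Ifitm2 and 0.51 for Ifitm3 in cDC2-like nuclei, and 1.15, 0.099 and -0.31 for Ifitm2, Ifitm3 and Ifitm6 in cDC1-like nuclei, with no value for Ifitm1. Subtraction by macrophage markers gave 4.47, 0.57, 0.44 and 0.35 for Ifitm1, Ifitm2, Ifitm3 and Ifitm6 in cDC2-like and 5.48, 3.06, 4.60 and 2.50 in cDC1-like nuclei. In pDC-like nuclei subtraction by another cell type's markers turned Ifitm2 to -0.57, in T cell-like nuclei Ifitm6 to -2.09, and in nonclassical monocyte-like nuclei Ifitm2 to -0.37 and Ifitm3 to -0.065, which hepatocyte markers turned to -0.55 and -0.18. The cause of these moves beyond the construction of each alternative was not tested. Without thinning, the shares of nuclei with Ifitm1 were 6.98% and 60.9% in cDC2-like and 4.01% and 41.9% in cDC1-like nuclei. In barcodes of 10 to 100 UMIs, Ifitm2 at D0 was 758 CPM and Ifitm1 at D5 was 997 CPM. In the ATAC layer a window of 2 kb gave 1.33 for Ifitm1 and -0.10 for Ifitm3 in cDC2-like nuclei and 0.63 for Ifitm1 in cDC1-like nuclei, and each library's own peaks gave 0.46 and 0.50 for Ifitm2 in these classes. With a minimum of 50 UMIs or fragments, the genes past 2-fold became 0.393% in cDC1-like, 0.895% in NK cell-like, 0.726% in macrophage-like, 2.68% in Ccr7+ DC-like and 1.07% in T cell-like nuclei, and the regions 0.895% in cDC2-like nuclei.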

Other observations

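Clusters that met no marker list also held the family. Nuclei led by Ccdc192 and Adgrl3 (368 at D0 and 443 at D5) had the highest Ifitm1 level of the groups compared at D0, 143 CPM (115 to 176), and 667 CPM (622 to 714) at D5, a ratio of 4.66 (3.75 to 5.84), the lowest of the groups with at least 50 nuclei on each day. Ifitm1 made up 9.87% (8.03 to 12.0) of the family's UMIs in them at D0, against 3.52% (3.02 to 4.07) in low-count barcodes of that day. Their Ifitm3 had 557 and 1115 CPM, a ratio of 2.00. Cycling nuclei led by Iqgap3 and Neil3 (137 and 298) had 53.9 and 425 CPM of Ifitm1, a ratio of 7.89, and 841 and 1122 CPM of Ifitm3, a ratio of 1.33.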
